A study of Mus musculus with 20 samples.

Results

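The CXC chemokines are small secreted proteins, named for a pair of cysteines set apart by another residue, that call leukocytes into tissue through G protein-coupled receptors. In mice Cxcl1, Cxcl2 and Cxcl5 act on Cxcr2 and recruit neutrophils, Cxcl9, Cxcl10 and Cxcl11 act on Cxcr3 and recruit activated T and NK cells, Cxcl12 acts on Cxcr4 and Cxcr7, Cxcl13 on Cxcr5 and Cxcl16 on Cxcr6. Liver cells, among them hepatocytes, Kupffer cells, sinusoidal endothelium and stellate cells, make several of them, and IL-1β is a known inducer of many inflammatory chemokine genes through NF-κB. The members described here were chosen by symbol (Cxcl1, Cxcl2, Cxcl5, Cxcl9, Cxcl10, Cxcl11, Cxcl12, Cxcl13, Cxcl14 and Cxcl16). They are 10 of the 37681 genes listed in each table, and all 10 were among the 15578 genes that were tested.

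Livers came from 10 male C57/B6J mice (strain label C57/BL6) aged 12 weeks, 5 given IL-1β at 20 µg/kg and 5 given saline (untreated), and were collected 4 hours later. Mice carry the names of the labels, ILB for IL-1β and UNT for untreated with the mouse number. RNA of each liver was sequenced on an Illumina HiSeq and on an Ion Torrent Proton, and alignment was run in 3 ways (STAR alone, GSNAP alone, and Bowtie2 on what STAR left unmapped), which gives 6 count tables of 10 libraries each. The counts are numbers of reads per gene after the study's own re-sampling of the reads, and library totals ran from 10568530 to 12008799 on Illumina and from 12199528 to 16439683 on Ion Torrent. In all 6 tables every untreated library had a larger total than every treated one (10887640 to 11046256 against 10568530 to 10655860 with Illumina STAR), which TMM scaling takes into account. Unless another table is named, values are from the Illumina STAR table, CPM are read counts scaled to equal library totals after TMM normalisation, and a gene was called where edgeR's quasi-likelihood test gave a Benjamini-Hochberg adjusted p below 0.05 over all tested genes. The whole liver was sequenced, so more cells of a type and more RNA per cell cannot be told apart. Untreated mouse UNT_9584 stood apart: deviations from the group mean correlated between its Illumina and Ion Torrent libraries at r = 0.23 across genes. For the other mice r was 0.47 to 0.65 (STAR, 11929 genes, which are no independent replicates). This correlation does not tell which library differed. The study reported shifted read lengths in the Ion Torrent library of this mouse. The main Ion Torrent results are therefore also given without that mouse.

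With IL-1β, 7 of the 10 chemokines changed. Cxcl1, Cxcl5, Cxcl9, Cxcl13 and Cxcl16 rose, Cxcl11 and Cxcl12 fell, and Cxcl2, Cxcl10 and Cxcl14 did not pass the test. Of all tested genes 45.7% were called, 22.7% higher and 22.9% lower with IL-1β, so the share called among the members stands beside a large background. The members' median log2 fold change was 1.24, against 0 over all tested genes. With an absolute log2 fold change above 1 also required, 6 members remained called, against 16.9% of all tested genes. In unscaled reads, no untreated mouse overlapped any treated mouse for 4 members (Cxcl5, Cxcl9, Cxcl11 and Cxcl12), which held for 33.6% of all tested genes. In CPM the groups were apart for Cxcl13 and Cxcl16 as well, and the share over all tested genes was not computed on that scale.

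**Figure D1:**
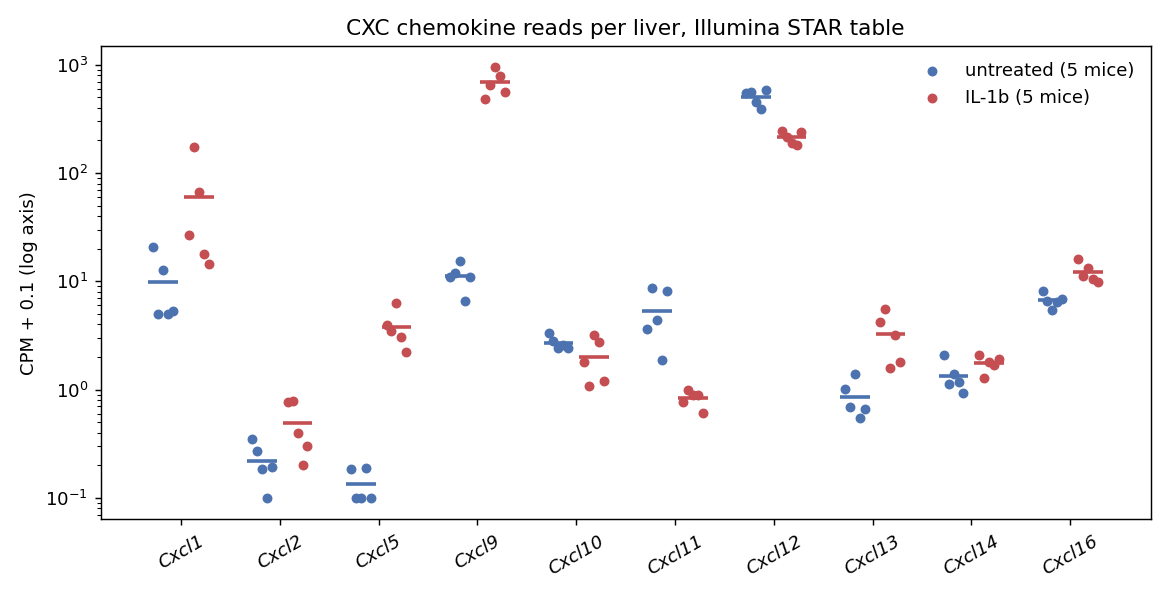
Level of each CXC chemokine in each mouse (CPM + 0.1, log axis, Illumina STAR). Points are mice, 5 untreated (blue) and 5 IL-1β treated (red), and bars are group means. The red points lie wholly above the blue ones for Cxcl5, Cxcl9, Cxcl13 and Cxcl16 and wholly below them for Cxcl11 and Cxcl12. Cxcl1 is the member with the widest red spread among those with a treated mean above 100 reads.

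Of the 10 members, 7 (Cxcl1, Cxcl2, Cxcl9, Cxcl10, Cxcl12, Cxcl13 and Cxcl14) had an entry in the RefSeq promoter table (build GRCm38.p6, which is not the mm9 build of the counts). The 250 bases before the start are shown for Cxcl1, Cxcl9 and Cxcl10, because these genes moved differently although each window holds letters of an NF-κB site, and for Cxcl12, which fell. Capitals mark matches on either strand to the NF-κB letters GGNNNTTCC or to the interferon-stimulated response element letters AAANNGAAA.
Cxcl1, chr5:90890995-90891244, plus strand: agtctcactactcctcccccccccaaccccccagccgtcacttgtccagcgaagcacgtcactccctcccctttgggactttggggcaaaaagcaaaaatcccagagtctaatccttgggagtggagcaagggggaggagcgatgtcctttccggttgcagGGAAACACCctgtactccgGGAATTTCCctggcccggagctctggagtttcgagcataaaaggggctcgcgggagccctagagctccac
Cxcl9, chr5:92328080-92328329, minus strand: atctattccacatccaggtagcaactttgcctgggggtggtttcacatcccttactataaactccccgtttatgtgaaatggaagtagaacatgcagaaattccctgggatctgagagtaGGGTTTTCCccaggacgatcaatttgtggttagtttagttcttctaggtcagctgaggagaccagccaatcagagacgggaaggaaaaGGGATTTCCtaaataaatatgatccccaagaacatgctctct
Cxcl10, chr5:92348890-92349139, minus strand: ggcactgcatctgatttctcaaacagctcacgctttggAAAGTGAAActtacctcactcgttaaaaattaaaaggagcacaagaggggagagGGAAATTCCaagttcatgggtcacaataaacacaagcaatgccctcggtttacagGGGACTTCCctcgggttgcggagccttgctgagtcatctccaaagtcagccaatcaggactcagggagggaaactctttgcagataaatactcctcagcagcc
Cxcl12, chr6:117168285-117168534, plus strand: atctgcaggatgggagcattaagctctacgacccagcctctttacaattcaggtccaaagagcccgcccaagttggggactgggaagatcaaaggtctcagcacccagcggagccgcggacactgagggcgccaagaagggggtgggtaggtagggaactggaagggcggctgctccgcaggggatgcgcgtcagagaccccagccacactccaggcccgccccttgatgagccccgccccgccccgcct

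The NF-κB letters were found in 4 of the 7 windows (Cxcl1, Cxcl2, Cxcl9 and Cxcl10) and in 15.7% of the 32851 promoters of the table. In Cxcl1 the match GGAATTTCC, which reads as a match on both strands, began 70 bases before the start, and GGAAACACC on the other strand began 89 bases before it. Cxcl2 also held GGAATTTCC, at 96 bases before its start. Cxcl9 held GGGATTTCC at 42 bases and GGGTTTTCC at 130 bases before the start, and Cxcl10 held GGGACTTCC at 103 bases and GGAAATTCC at 158 bases before it. The response element letters were found in Cxcl10, as AAAGTGAAA at 212 bases before the start, and in Cxcl14, and in 9.37% of all promoters. The interferon-γ activated site letters TTCNNNGAA were found among the members in Cxcl14, with 7.02% of all promoters holding them. The AP-1 letters TGANTCA were found in Cxcl10 (6.75% of all promoters), the C/EBP letters TTGCNNAA in Cxcl13 (9.56%) and the TATA box letters TATAAA in Cxcl9 and Cxcl13 (12.4%). The Cxcl12 window held none of these 6 sets of letters. Motifs were searched on both strands, no match of a set overlapped one of another set in these windows, and a match describes letters and not binding.

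The Cxcr2 ligands lie together on chromosome 5 (NCBIM37, the assembly of mm9). Cxcl5 spans chr5:91188325-91190651, Cxcl1 chr5:91320267-91322141 and Cxcl2 chr5:91332897-91334935, all on the plus strand, and 10755 bases separate Cxcl1 from Cxcl2.

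Cxcl1, the main neutrophil-attracting chemokine of the mouse liver, had 280, 1763, 673, 179 and 142 reads in treated mice ILB_9577, ILB_9578, ILB_9579, ILB_9582 and ILB_9583. In untreated mice UNT_9574, UNT_9575, UNT_9576, UNT_9580 and UNT_9584 it had 249, 58, 147, 55 and 56 reads. The groups overlapped, since untreated mouse UNT_9574 lay above treated mice ILB_9582 and ILB_9583. The mean was 59.8 ± 67.1 CPM with IL-1β and 9.68 ± 7.0 CPM without (SD, n = 5 each). Its log2 fold change was 2.62 ± 0.64 (SE, 95% interval 1.25 to 3.99, edgeR adjusted p = 0.0035). Mouse ILB_9578 carried much of its size. Without that mouse the log2 fold change was 1.69 (edgeR adjusted p = 0.011), and over the 6 tables it was 1.69 to 2.0. The exact two-sided rank test gave q = 0.11 for Cxcl1, where 39.6% of the genes it could test were called. In the other tables the rank test called Cxcl1 with Ion Torrent STAR alone (q = 0.043), and q was 0.068 to 0.11 in the rest.

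The level of Cxcl1 in the 5 treated mice spread widely, by 10.3 to 12.4 times between the highest and the lowest mouse over the 6 tables. The order of the treated mice was identical in all 6 tables, with ILB_9578 highest, then ILB_9579, ILB_9577, ILB_9582 and ILB_9583. Libraries prepared separately from the same RNA thus ranked the mice alike.

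Cxcl2, a close relative of Cxcl1 with the same receptor, was barely detected. It had 7, 7, 3, 1 and 2 reads in treated mice and 3, 2, 1, 0 and 1 in untreated mice, so the groups overlapped. The 20 treated and 7 untreated reads, scaled by library size, stood in a ratio of 3.23 (exact 95% interval 1.31 to 9.04, counting error only). IL-1β against untreated gave a log2 fold change of 1.60 ± 0.65 (SE, edgeR adjusted p = 0.055), over the 6 tables it was 0.95 to 1.60, and no table called it. The same ratio of reads was 2.0 (0.83 to 5.15) with Illumina GSNAP and 2.03 (0.96 to 4.50) with Illumina STAR + Bowtie2, and both intervals cover 1. On Ion Torrent the intervals lay above 1, at 1.11 to 4.74 (STAR), 1.39 to 5.67 (GSNAP) and 1.42 to 5.02 (STAR + Bowtie2). These intervals leave out the spread between mice, so a change of Cxcl2 stayed unsettled at this depth.

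Cxcl5, the third ligand of Cxcr2, went from near absence to a clear signal. Treated mice had 41, 34, 63, 30 and 21 reads and untreated mice 1, 0, 0, 1 and 0. The groups were far apart, with the lowest treated mouse at 21 reads and the highest untreated mouse at 1. Scaled by library size, the 189 treated and 2 untreated reads stood in a ratio of 107 (exact 95% interval 29.2 to 889, counting error only). The fitted log2 fold change was 6.33 ± 0.54 (SE, edgeR adjusted p = 3.3e-07), and its size depends on how reads near 0 are handled. In the Illumina STAR + Bowtie2 table all 5 untreated libraries had 0 reads against 207 treated reads, at least 76.4-fold higher against a floor of 3 reads over the untreated group. With Ion Torrent and STAR there were 250 treated and 2 untreated reads.

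Among the treated mice Cxcl5 followed the order of Cxcl1 in part. From highest to lowest its order was ILB_9579, ILB_9577, ILB_9578, ILB_9582 and ILB_9583, so ILB_9578 alone changed its place relative to the others. Mouse ILB_9579 was highest for Cxcl5 in all 6 tables and mouse ILB_9578 was highest for Cxcl1 in all 6. Mouse ILB_9583 was lowest for both. The Cxcl1 to Cxcl2 ratio on the log2 scale (0.5 reads added) was 6.69 ± 1.13 with IL-1β and 5.87 ± 0.95 without (SD, n = 5 each). Cxcl2 had at most 7 reads in a library here, so the size of this ratio depends on single reads and on the amount added. The difference of 0.81 did not pass (exact permutation test, two-sided, p = 0.26, adjusted over 4 ratios p = 0.26). The other 5 tables gave larger differences, of 1.28 to 1.82, which did not pass either (exact permutation p from 0.056 to 0.16).

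The Cxcr3 ligands form another cluster on chromosome 5, all on the minus strand. Cxcl9 spans chr5:92750357-92757105, Cxcl10 chr5:92775664-92777915 and Cxcl11 chr5:92788570-92794511. Cxcl9 ends 18558 bases from Cxcl10, and Cxcl10 lies 10654 bases from Cxcl11. Despite their closeness and their shared receptor, the 3 genes moved apart from each other.

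Cxcl9, known as a gene induced by interferon-γ, showed the largest rise in reads of the family. Treated mice had 5102, 6669, 9522, 7999 and 5552 reads and untreated mice 130, 138, 179, 73 and 118. The lowest treated mouse had 5102 reads and the highest untreated mouse 179. The mean was 688 ± 185 CPM with IL-1β and 11.1 ± 3.16 CPM without (SD, n = 5 each). The log2 fold change was 5.95 ± 0.24 (SE, 95% interval 5.43 to 6.48, 62.0-fold, edgeR adjusted p = 2.0e-10). It ran from 5.75 to 5.95 over the 6 tables, and from 5.81 to 6.10 with each mouse left out in turn. The treated mice spread 1.95 to 2.0 times between highest and lowest and kept 1 order in all 6 tables, with ILB_9579 highest and ILB_9577 lowest.

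Cxcl10, the other well-known interferon-induced ligand of Cxcr3, did not pass the test. It had 18, 10, 31, 27 and 11 reads in treated mice and 39, 32, 27, 28 and 25 in untreated mice. The groups overlapped, and mice ILB_9577, ILB_9578 and ILB_9583 lay below every untreated mouse. Its log2 fold change was -0.46 ± 0.29 (SE, 95% interval -1.07 to 0.16, edgeR adjusted p = 0.22). It was -0.49 to 0.03 over the 6 tables, at or near 0 on Ion Torrent (-0.04 to 0.10 there without mouse UNT_9584), and the interval covers both a fall by 1.07 and a rise by 0.16 on the log2 scale. Art3, on the other strand, shares 133 of the 1520 exon bases of Cxcl10.

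Cxcl11 fell. Treated mice had 7, 9, 8, 8 and 5 reads and untreated mice 42, 100, 50, 20 and 86. The highest treated mouse had 9 reads and the lowest untreated mouse 20. The mean was 0.73 ± 0.15 CPM with IL-1β and 5.21 ± 2.92 CPM without (SD, n = 5 each). IL-1β against untreated gave a log2 fold change of -2.82 ± 0.41 (SE, 95% interval -3.70 to -1.94, edgeR adjusted p = 5.3e-05), and -2.92 to -2.42 over the 6 tables. The annotation lists this gene as a processed transcript rather than as protein-coding, so its reads may not stand for a protein that acts on Cxcr3.

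Reads of other transcripts lie close to Cxcl11. Gm2673, a pseudogene on the opposite strand, covers 1582 of its 3794 exon bases and had 0 reads in all 10 Illumina STAR libraries. Art3, an ADP-ribosyltransferase gene on the opposite strand that spans Cxcl11 without sharing an exon base, had 3, 4, 4, 6 and 6 reads in treated mice and 23, 29, 23, 23 and 10 in untreated mice. Its log2 fold change was -2.02 ± 0.32 (SE, edgeR adjusted p = 0.00012), so it fell with Cxcl11. Libraries of both platforms were strand-specific by the study's methods. Whether the deposited counts were made by strand is not given in the sources used here. The part of reads from Art3 in the Cxcl11 result was not tested.

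The ratios of the Cxcr3 ligands shifted with IL-1β in every table. The log2 ratio of Cxcl9 to Cxcl10 was 8.55 ± 0.53 with IL-1β and 2.02 ± 0.51 without (SD, n = 5 each), a difference of 6.53 (exact permutation test, two-sided, p = 0.0079, adjusted p = 0.016). The log2 ratio of Cxcl9 to Cxcl11 differed by 8.53 (exact permutation p = 0.0079, adjusted p = 0.016). The value 0.0079 is the smallest that 5 mice against 5 allow. The log2 ratio of Cxcl11 to Cxcl10 was -1.22 ± 0.68 with IL-1β and 0.78 ± 0.97 without. The difference of -2.0 also passed the test although the groups overlapped (exact permutation p = 0.016, adjusted p = 0.021). The Cxcr3 ligands are thus changed unequally within a library, and these ratios do not depend on the scaling of the libraries.

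Cxcl12, the constitutive chemokine that retains progenitor cells and lymphocytes through Cxcr4 (chr6:117118553-117131385, plus strand), was the most abundant CXC chemokine of the untreated liver. Treated mice had 2589, 2171, 1920, 1847 and 2372 reads and untreated mice 6543, 6654, 5336, 4364 and 6359. The highest treated mouse lay well below the lowest untreated mouse. The mean fell from 510 ± 84.5 CPM to 214 ± 27.9 CPM (SD, n = 5 each). The log2 fold change was -1.25 ± 0.13 (SE, 95% interval -1.53 to -0.97, edgeR adjusted p = 2.1e-06), which is 2.38-fold lower, and the 6 tables gave -1.33 to -1.25.

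Cxcl13, which guides B cells through Cxcr5 (chr5:96385945-96390086, plus strand), rose at a low level. Treated mice had 43, 55, 15, 31 and 17 reads and untreated mice 11, 7, 15, 5 and 6. The groups met at 15 reads, in treated mouse ILB_9579 and untreated mouse UNT_9576. In CPM these mice were at 1.49 and 1.29, so the groups were apart on that scale. Its log2 fold change was 2.03 ± 0.39 (SE, 95% interval 1.20 to 2.86, edgeR adjusted p = 0.00058), and 1.94 to 2.40 over the 6 tables. Mouse ILB_9579, the highest treated mouse for Cxcl5 and Cxcl9, was the lowest for Cxcl13.

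Cxcl16, a transmembrane chemokine that also binds oxidised lipoprotein and is shed by Adam10 and Adam17 (chr11:70267485-70273486, minus strand), rose by a smaller factor. Treated mice had 168, 113, 133, 104 and 97 reads and untreated mice 97, 76, 62, 71 and 73. The lowest treated mouse and the highest untreated mouse both had 97 reads, and all others were apart. In CPM these mice, ILB_9583 and UNT_9574, were at 9.77 and 8.08, so the groups were apart on that scale. IL-1β against untreated gave a log2 fold change of 0.87 ± 0.16 (SE, 95% interval 0.52 to 1.22, 1.83-fold, edgeR adjusted p = 0.00047), and 0.73 to 0.93 over the 6 tables. Zmynd15, on the other strand, shares 552 of its 3021 exon bases and had a log2 fold change of -0.29 ± 0.24 (SE, edgeR adjusted p = 0.37).

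Cxcl14, a chemokine of epithelia whose receptor is not settled (chr13:56390008-56397912, minus strand), did not pass the test. Treated mice had 21, 12, 17, 16 and 18 reads and untreated mice 24, 12, 15, 12 and 9, and the groups overlapped over most of their range. The log2 fold change was 0.40 ± 0.27 (SE, 95% interval -0.17 to 0.97, edgeR adjusted p = 0.24).

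Levels per length, as CPM per kilobase of exon, put the members in order within a group. In untreated livers Cxcl12 stood alone at 62.3 ± 10.3, followed by Cxcl1 at 10.2 ± 7.35 and Cxcl9 at 3.81 ± 1.09 (SD, n = 5), which overlapped each other. Cxcl16, Cxcl10, Cxcl11, Cxcl14 and Cxcl13 followed, between 2.18 and 0.65, and from Cxcl9 down to Cxcl13 each overlapped the next. Cxcl2 and Cxcl5 came last at 0.065 and 0.021, overlapping each other and lying below Cxcl13 in every mouse. With IL-1β Cxcl9 led at 237 ± 63.6, then Cxcl1 at 62.8 ± 70.4 and Cxcl12 at 26.2 ± 3.41. The ranges of Cxcl9 and Cxcl1 overlapped, through mouse ILB_9578, as did those of Cxcl1 and Cxcl12. Cxcl16, Cxcl13, Cxcl5, Cxcl10 and Cxcl14 followed between 4.0 and 0.91, each overlapping the next, and all below Cxcl12 in every mouse. Cxcl2 and Cxcl11 came last at 0.21 and 0.19 and overlapped.

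**Figure D2:**
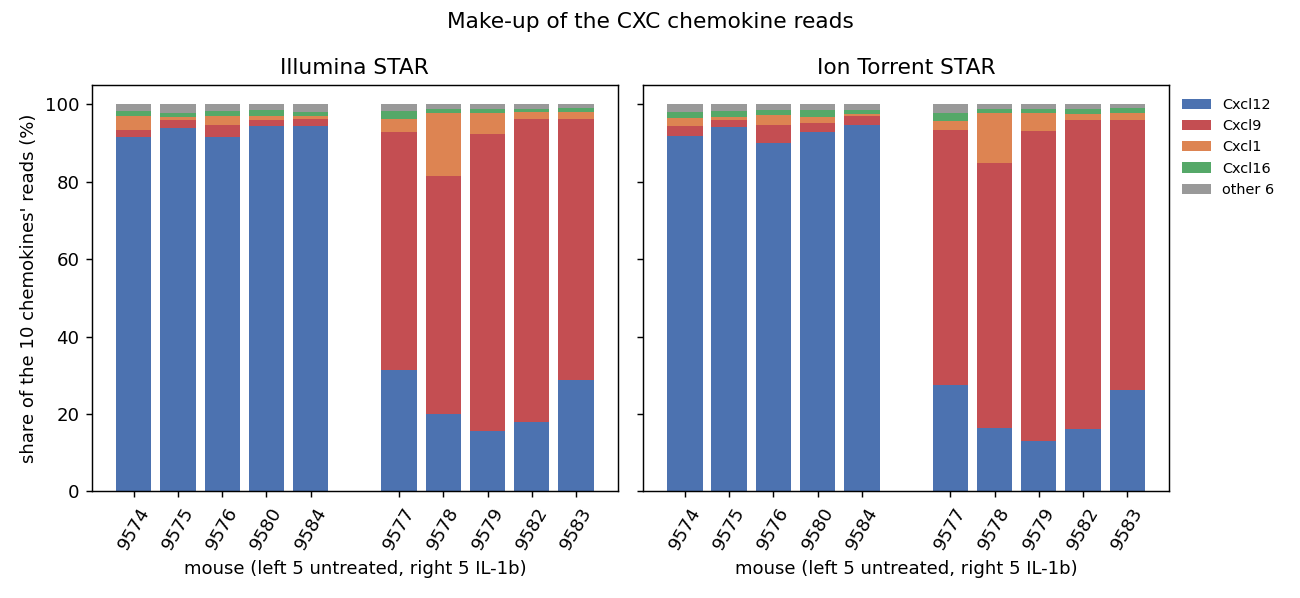
Share of the 10 chemokines' reads (%) taken by Cxcl12, Cxcl9, Cxcl1, Cxcl16 and the other 6 members in each mouse, in the Illumina STAR (left) and Ion Torrent STAR (right) tables. Bars are mice, the left 5 untreated and the right 5 IL-1β treated. Cxcl12 fills over 90% of each untreated bar, Cxcl9 fills most of each treated bar, and mouse ILB_9578 has the widest band of Cxcl1.

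In reads, the make-up of the family turned over. Cxcl12 held 93.2% ± 1.47 of the members' reads in untreated livers and 22.7% ± 6.92 with IL-1β (SD, n = 5 each). Cxcl9 held 2.03% ± 0.59 in untreated livers and 69.1% ± 8.03 with IL-1β. Cxcl1 held 1.77% ± 1.19 and 5.71% ± 6.09, and reached 16.3% in mouse ILB_9578. The members together had 4629 to 7139 reads per library in untreated livers and 8237 to 12385 with IL-1β. On Ion Torrent (STAR) the share of Cxcl12 was 92.7% ± 1.78 untreated and 19.8% ± 6.60 treated, and that of Cxcl9 was 2.72% ± 1.0 and 72.8% ± 6.76. Without mouse UNT_9584 the untreated Ion Torrent shares were 92.3% ± 1.68 for Cxcl12 and 2.81% ± 1.13 for Cxcl9 (SD, n = 4). Long transcripts gather more reads, and per length the share of Cxcl9 with IL-1β was 71.7% ± 12.9 and that of Cxcl12 was 8.54% ± 3.46.

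**Figure D3:**
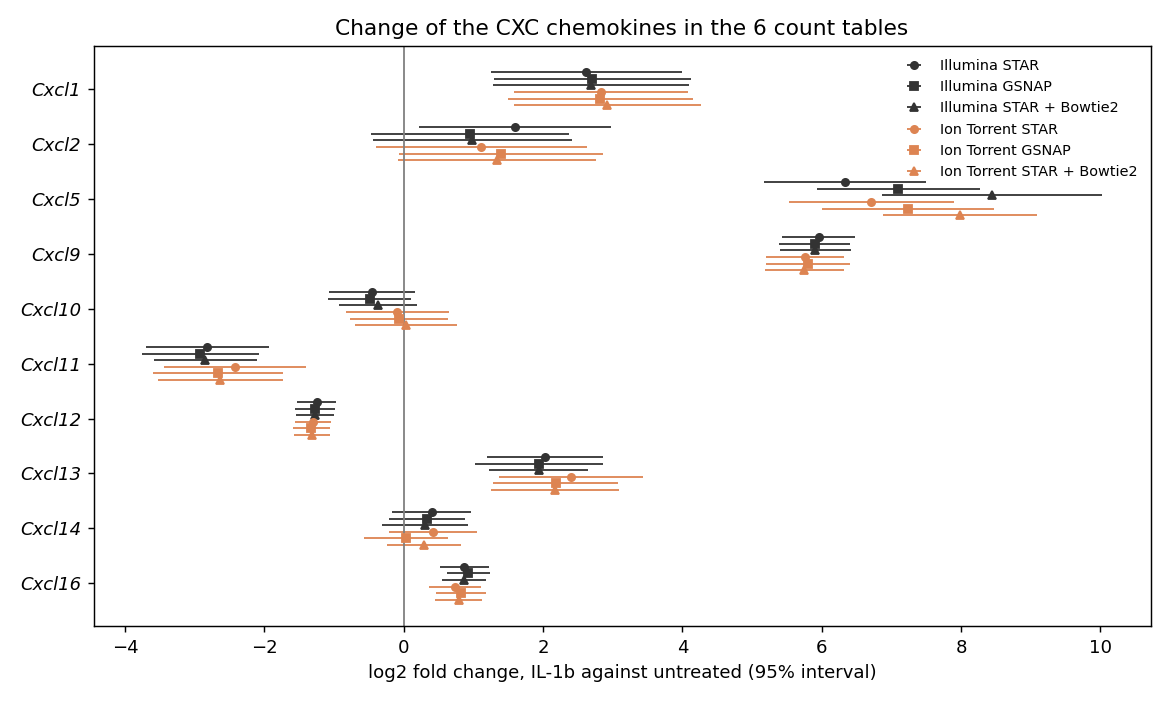
Log2 fold change of each member, IL-1β against untreated, with its 95% interval in the 6 count tables (black Illumina, orange Ion Torrent, symbols for aligners). Intervals of Cxcl1, Cxcl5, Cxcl9, Cxcl13 and Cxcl16 lie right of 0 and those of Cxcl11 and Cxcl12 left of it in all 6 tables, and those of Cxcl10 and Cxcl14 cross 0 in all 6.

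The study was built to compare the platforms, so the same contrast was read in the other tables, which share the mice and are no independent replicates. By edgeR, the 7 called members were the same in all 6 tables. The background share called was 47.5% and 47.4% for Illumina GSNAP and STAR + Bowtie2, and 42.1%, 46.4% and 46.7% for Ion Torrent STAR, GSNAP and STAR + Bowtie2. On Ion Torrent (STAR) Cxcl1 had 198, 1560, 612, 162 and 144 reads in treated mice and 127, 50, 149, 58 and 38 in untreated mice, with mouse ILB_9578 again highest. Cxcl9 there had 5408, 8151, 10281, 8823 and 5669 reads treated and 164, 125, 263, 97 and 144 untreated. Cxcl12 had 2267, 1961, 1656, 1765 and 2122 reads treated and 5992, 6018, 5296, 3920 and 5839 untreated. Without mouse UNT_9584 the 7 members were still called in all 3 Ion Torrent tables, and Cxcl9 had a log2 fold change of 5.74 to 5.78 there and Cxcl12 of -1.28 to -1.26.

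The platform-by-treatment term, fitted with each mouse as a block, asks whether the change differed between platforms. It was called for 0 of the 10 members with each aligner by edgeR, 0 members had an unadjusted p below 0.05, and DESeq2 and limma-voom with the same block also called 0. Over all tested genes it was called for 0.00642% with STAR, 0.0642% with GSNAP and 0.077% with STAR + Bowtie2. The lowest adjusted p of a member was 0.66. With STAR the change on Ion Torrent minus that on Illumina was -0.17 ± 0.11 for Cxcl9, 0.18 ± 0.17 for Cxcl1, -0.05 ± 0.07 for Cxcl12 and 0.38 ± 0.28 for Cxcl10 (log2, SE). For Cxcl5, Cxcl2 and Cxcl11, with few reads in a group, the same term was 0.37 ± 1.39 (95% interval -2.50 to 3.23), -0.51 ± 0.85 and 0.35 ± 0.53, too wide to tell a moderate difference from none. Without mouse UNT_9584 the term was again called for 0 members with each aligner, 0 members had an unadjusted p below 0.05, and with STAR it was -0.19 ± 0.10 for Cxcl9 and 0.51 ± 0.30 for Cxcl10.

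**Figure D4:**
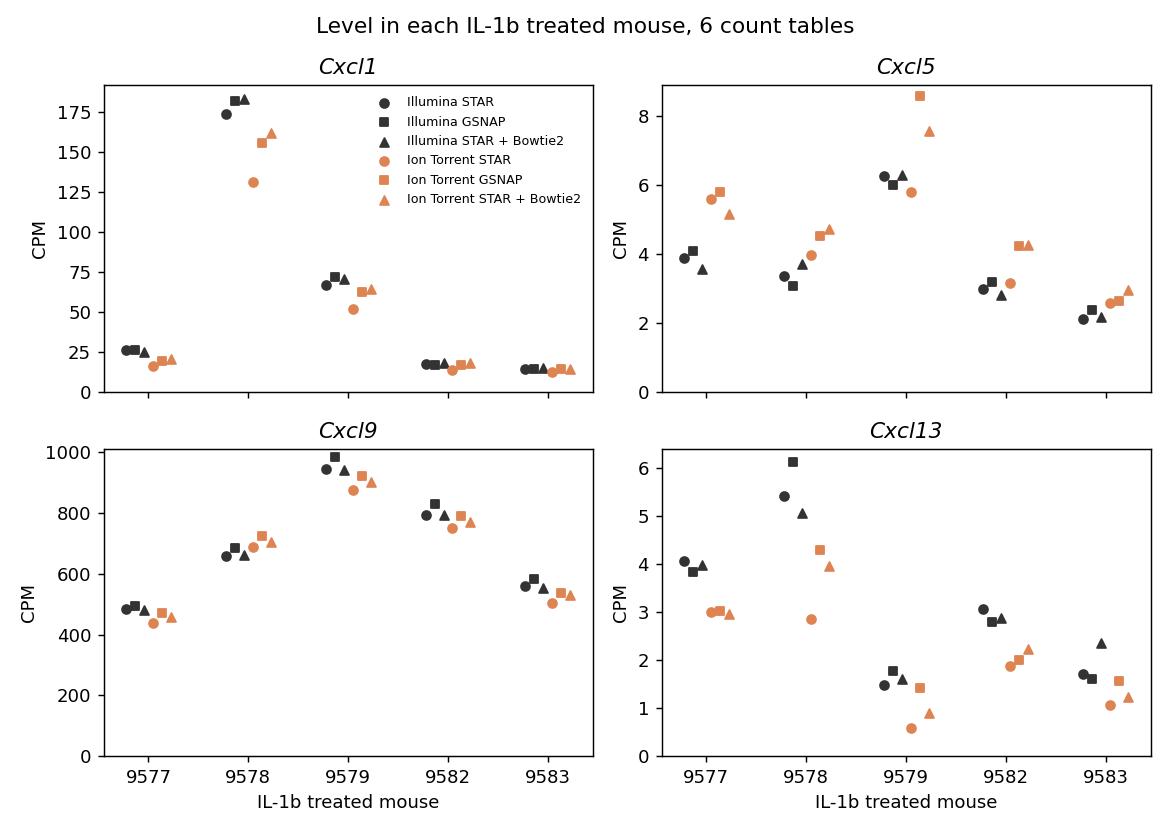
Level (CPM) of Cxcl1, Cxcl5, Cxcl9 and Cxcl13 in each IL-1β treated mouse in the 6 tables (black Illumina, orange Ion Torrent, symbols for aligners). Each point is 1 library. Mouse ILB_9578 is highest for Cxcl1 and mouse ILB_9579 for Cxcl5 and Cxcl9 in all 6 tables, and mouse ILB_9579 is lowest for Cxcl13 in 5 of them.

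The remaining CXC ligands were close to absent. Cxcl15 had 0 reads in all 10 libraries, Cxcl3 had 1 read in all and Cxcl17 had 1 read in all. The platelet chemokines Ppbp and Pf4 had 24 and 53 reads in all. Pf4 alone among them could be tested, with 9, 3, 8, 4 and 13 reads treated and 1, 2, 4, 4 and 5 untreated (log2 fold change 1.35 ± 0.48, SE, edgeR adjusted p = 0.033). The groups overlapped, and the call was lost when any 1 of mice ILB_9577, ILB_9579, ILB_9583, UNT_9574 or UNT_9575 was left out (adjusted p up to 0.11).

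Among the receptors Cxcr2, carried by neutrophils and the target of Cxcl1, Cxcl2 and Cxcl5, rose. It had 33, 77, 28, 61 and 33 reads treated and 3, 3, 2, 2 and 1 untreated (log2 fold change 4.50 ± 0.41, SE, edgeR adjusted p = 6.1e-07). The summed neutrophil markers rose beside it, from 2.22 to 6.41 CPM in untreated livers to 53.3 to 118 CPM, and the part of more neutrophils in its rise was not tested. The atypical receptor Ackr1, listed as Darc, which binds many inflammatory chemokines, had 21, 17, 25, 13 and 17 reads treated and 9, 12, 4, 13 and 9 untreated (1.15 ± 0.30, SE, edgeR adjusted p = 0.0051). Cxcr3, the receptor of Cxcl9, had 6 reads in all treated libraries and 19 in all untreated ones (-1.40 ± 0.63, SE, edgeR adjusted p = 0.086). Cxcr4, Cxcr6 and Ackr3 (listed as Cxcr7) had log2 fold changes of 0.03, -0.73 and 0.51 and did not pass the test, and Cxcr1 and Cxcr5, with 10 and 13 reads in all, were not tested.

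Of 8 genes that handle these chemokines, 6 rose and 1 fell, with a median log2 fold change of 0.68, beside 22.7% higher and 22.9% lower over all tested genes. Mmp8, the collagenase of neutrophils, had 46, 82, 29, 56 and 36 reads treated and 1, 0, 1, 1 and 1 untreated (5.92 ± 0.46, SE, edgeR adjusted p = 1.2e-07). Mmp9, a gelatinase that trims chemokines, rose by 2.99 ± 0.50 (log2, SE, edgeR adjusted p = 0.00019). Ext1, which builds the heparan sulfate that chemokines bind, rose by 0.85 ± 0.11 (edgeR adjusted p = 1.8e-05). Dpp4, the peptidase that inactivates Cxcl9, Cxcl10 and Cxcl12, fell by 1.03 ± 0.12 (edgeR adjusted p = 5.3e-06).

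Of 20 genes from the IL-1 receptor to NF-κB, 18 were tested, and 12 rose, 2 fell and 4 did not pass, with a median log2 fold change of 1.07, beside the same 22.7% and 22.9%. Il1r1, the signalling receptor, had 7446 to 10068 reads treated and 670 to 1329 untreated (3.46 ± 0.18, SE, edgeR adjusted p = 2.1e-09). Irak3, a brake on the same receptor, rose by 4.52 ± 0.31 (edgeR adjusted p = 3.1e-08) and Nfkb2 by 3.07 ± 0.25 (edgeR adjusted p = 2.2e-07). Tnfaip3, an inhibitor of NF-κB signalling, had 65, 557, 89, 49 and 48 reads treated and 33, 59, 33, 26 and 25 untreated (2.38 ± 0.64, SE, edgeR adjusted p = 0.0068). Mouse ILB_9578, the highest mouse for Cxcl1, was also the highest for Tnfaip3, and without it the log2 fold change of Tnfaip3 was 1.01 (edgeR adjusted p = 0.0057). Tnf and Il6 were not detected, with 21 and 8 reads in all.

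Of 15 interferon signalling genes, 13 were tested, and 5 rose, 1 fell and 7 did not pass, with a median log2 fold change of 0.31. These 6 calls of 13 are near the 45.7% called over all tested genes. Ifnb1 had 0 reads and Ifng, the classical inducer of Cxcl9, had 3 reads over the 10 libraries, so neither could be tested. Irf1, a transcription factor downstream of interferon-γ, fell by 1.12 ± 0.17 (log2, SE, edgeR adjusted p = 7.3e-05). Ifngr2, a subunit of the interferon-γ receptor, rose by 0.94 ± 0.14 (edgeR adjusted p = 4.8e-05). Stat2, which carries interferon signals to the nucleus, rose by 0.68 ± 0.10 (edgeR adjusted p = 4.2e-05).

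Markers of the cells that could make or follow these chemokines were read beside the same background, 22.7% higher and 22.9% lower over all tested genes. Of 12 neutrophil markers 8 were tested and all 8 rose, led in reads by S100a9, S100a8 and Csf3r. Their list holds Cxcr2 and Mmp8. Of the defining neutrophil genes, Ly6g, Camp, Ngp and Ltf had 0 reads in untreated livers and 6, 11, 82 and 31 reads in all treated ones, whereas Elane had 4 untreated and 0 treated reads and Mpo 0 and 1. T and NK cell markers (led by Klrb1c, Cd3g and Gzma) summed to 1.11 to 3.22 CPM treated and 2.04 to 3.58 CPM untreated, and 0 of the 5 tested were called (lowest edgeR adjusted p = 0.21). B cell markers (among them Cd22 and Cd79b) summed to 0.81 to 1.79 CPM treated and 1.87 to 5.08 CPM untreated. The groups were apart in these sums, and 1 of the 4 tested fell. Of 10 Kupffer cell markers, led by Clec4f, Cd5l and Csf1r, 1 rose and 3 fell. Of 9 sinusoidal endothelial markers, led by Stab2, Kdr and Fcgr2b, 2 rose and 3 fell, and of 8 stellate cell markers, led by Dcn, Ecm1 and Reln, 3 fell. Of 5 bile duct markers, led by Spp1, Sox9 and Epcam, 2 rose, and the platelet marker that was tested, Itga2b, did not pass. The sums of these 5 lists overlapped between the groups. Calls in the Kupffer cell, endothelial, stellate cell and bile duct lists were near the 45.7% called over all tested genes. Of 8 hepatocyte markers, led by Alb, Apob and Apoa1, 2 rose and 3 fell. They summed to 77658 to 88245 CPM treated and 92989 to 114759 CPM untreated, so every treated liver lay below every untreated one. Hepatocyte genes were abundant in every library. Their part in the changes of the chemokines was not tested.

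Genes whose profile over the 10 Illumina STAR libraries lay closest to a member's were found by the root mean square difference of centred log2 CPM, among 9278 genes with a mean count of 50 or more. Tnfaip3 was closest to Cxcl1 (0.83), then Armcx4 (0.93) and B3galt1 (0.95), so none was near. Rtp4 (0.19) and Sh3pxd2a (0.21) were among the closest to Cxcl10. Tmem30b (0.12), Ormdl1 (0.12) and Rpa1 (0.15) were closest to Cxcl12, and Ogfrl1 (0.16), Rab35 (0.19) and Zkscan6 (0.19) to Cxcl16. Tmem30b, for example, had 151 to 232 reads treated and 410 to 551 untreated.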

How the data were processed

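Poly(A) RNA of 10 mouse livers was sequenced in 20 libraries, 1 per mouse and platform. Per the labels and the study's methods, the authors aligned reads to mm9 with GSNAP, STAR (2.5.1b) or STAR followed by Bowtie2 (2.2.9), re-sampled every library of a table to the same number of gene-mapping reads with PORT, and deposited whole-number counts per Ensembl gene, used here as they stand in 60 columns. Re-sampling narrows depth differences within a table but leaves larger totals in the untreated libraries, and intervals on reads cover counting error only. A gene was tested where 5 or more of the 10 libraries of any of the 6 tables held 5 reads or more of it. Groups came from the sample titles and the treatment label.

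Counts were tested with edgeR 4.0.16 (TMM, quasi-likelihood, Benjamini-Hochberg over all tested genes; SE is the absolute log2 fold change over the root of F) in R 4.3.3, within each table. Alternatives were the study's Mann-Whitney test (exact where no values tied), DESeq2 1.42.0, limma-voom 3.58.1, other scaling and filters, each mouse left out, and the other tables. Ratios between members (0.5 reads added) were tested by exact permutation in scipy 1.17.1. The test was also run on simulated data, with 199 of 200 changed genes recovered among 15578 in the Illumina STAR comparison. Only well-counted genes were changed there, with less spread than treated Cxcl1 had, so this recovery does not extend to members with few reads. For the platform term the mouse was a block, since both libraries of a mouse come from the same RNA. Over 11929 genes each mouse's libraries on the 2 platforms deviated together (r from 0.23 to 0.65, at most 0.21 with another mouse). Exon lengths and positions are from GENCODE M1 on NCBIM37, and promoters from RefSeq on GRCm38.p6. The named genes are all members, all other CXC ligands and receptors, the 4 largest called changes and the undetected genes of each pathway list, the 3 most abundant markers of a list, and the 3 genes most like Cxcl1, Cxcl10, Cxcl12 and Cxcl16. Some genes that this rule names are not reported here. The members, lists and tests were chosen with earlier results of these data known.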

Additional observations from a re-analysis of the deposited data

How the results depend on the processing

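Of 219 alternative values of single members, 215 kept their direction and side of the threshold or stayed uncalled, 1 lost its call and 3 gained one. Cxcl1 lost its call under the rank test (q = 0.11). Cxcl2 gained one without mouse ILB_9582 (adjusted p = 0.027), ILB_9583 (0.047) or UNT_9574 (0.039). The number of members called was 7 to 8 with each mouse left out, 6 with the rank test and 6 where the absolute log2 fold change also had to exceed 1. That last requirement took the calls over all genes from 7116 to 2634. The rank test called 5 to 7 members in the other tables. With 5 mice against 5 its lowest q for a member was 0.030.

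In the list of other CXC ligands the single call, Pf4, was gone under the rank test (0 called) and ranged from 0 to 1 with a mouse left out. The 4 ratios kept their direction and side of the threshold under every alternative run, and so did the counts of the other 4 lists within 1.5 times. With library totals in place of TMM the median change on the log2 scale, over genes averaging 10 reads or more, moved to -0.12 from 0.0046, and the calls over all genes split into 2746 higher and 4335 lower, against 3541 and 3575. The 7 members kept their calls there. Without the mouse block the platform term was called for 0 members with each aligner, as with it, and for 0, 3 and 6 genes in all (STAR, GSNAP, STAR + Bowtie2), against 1, 10 and 12. No paired analysis of IL-1β against untreated was possible because the groups share no mouse. Counts averaging under about 10 reads limit Cxcl2, untreated Cxcl5, treated Cxcl11 and untreated Cxcl13, whose rank-test call was lost with Illumina GSNAP (q = 0.075).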
